A study of Danio rerio with 6 samples.

Results

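Transcripts of 8 Tudor domain genes of germ granules, tdrd6, tdrd7, tdrkh, tdrd1, tdrd5, tdrd9, tdrd12 and rnf17, were followed in RNA co-precipitated with Tdrd6a from zebrafish. The sample labels give zygotes as the source of all 6 libraries, whereas the series text speaks of ovary; the sample labels are followed here, and the conflict was not resolved. The 8 transcripts were chosen by gene symbol among the 21051 genes of the table. The symbols of 6 stood in the table, and the other 2, tdrkh and tdrd12, stood there under clone names (zgc:113056 and si:ch1073-415n3.1) and were matched through gene identifiers and RefSeq synonyms. The tdrd6 row (ENSDARG00000070052) is the gene of the precipitated protein, which RefSeq calls tdrd6a, and the tdrd7 row (ENSDARG00000032808) is the gene now called tdrd7a. The 3 Tdrd6a_IP libraries, made from RNA recovered by immunoprecipitation (IP) of Tdrd6a, were compared with 3 Input libraries. Strain, age, genetic alterations and the number of eggs pooled were not given in the labels, and no treatment was named. No library of a control antibody was analysed here, so a difference describes the precipitate relative to input and not relative to background binding.

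Tudor domains are protein modules that bind methylated arginine or lysine residues. In germ cells, proteins that carry several of them bind the methylated arginines of Piwi proteins, the partners of piRNAs, and gather them in granules around the nucleus. In the zebrafish egg the germ plasm, an inherited aggregate of RNA and protein, is passed to the cells that become primordial germ cells. Tdrd6a is a germ plasm protein built of multiple Tudor domains.

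The values are normalized read counts, that is, read counts per gene divided by the authors' scaling factor for each library. Libraries held 10481205 to 19804774 reads in input and 4031863 to 22466764 in IP, with IP replicate 2 the shallowest. All 8 genes reached the mean of 10 normalized counts required for testing and are among the 13265 genes tested. The labels do not say whether the replicates came from different clutches; the p-values therefore describe the variation among these 6 libraries, part of which may be technical. Markers of the egg were present, with a summed level of 25278 to 29660 normalized counts over 6 genes in input and 119552 to 565724 in IP. Of these 6, dazl and slbp2 were called higher (6.20 ± 0.56 and 3.95 ± 0.45 on the log2 scale, limma adjusted p = 0.000612 and 0.00107) and cth1 lower (-1.26 ± 0.26, limma adjusted p = 0.0193). Over all genes tested limma called 4.46% higher and 1.86% lower. The rise of the sum came almost wholly from dazl and slbp2, and buc was not called (-0.55 ± 0.30, limma adjusted p = 0.326). Of 6 germ plasm markers, which include dazl, vasa and tdrd7 itself, 6 were called higher, against 4.46% of all genes tested. Their log2 fold changes were 5.26 to 6.40, with tdrd7 the lowest. The marker lists were chosen with earlier results of these data known. Of 4 measured markers of ovarian follicle cells, cyp19a1a and inha were listed at 0 in every library, and the 4 summed to 8.80 to 39.2 in input and 15.3 to 26.3 in IP. The 5 genes listed as zygotic markers summed to 97.5 to 186 in input and 304 to 609 in IP. Nearly all of this came from cxcr4b (97.5, 156.6 and 179.3 in input, and 389, 605 and 302 in IP), while ntla, gata1a, sox32 and tbx16 stayed at 5.5 or below. Only cxcr4b among these 5 genes reached the level for testing, and it was called higher (1.54 ± 0.38, limma adjusted p = 0.0372). Whether cxcr4b RNA was supplied by the mother was not tested, so its call is not read as a sign of zygotic transcription. The part of all these markers in the results was not tested. These bulk samples do not show which cells, or which part of a cell, the RNA came from.

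The 8 transcripts did not move as a group. One of them, tdrd7, was 38.3-fold higher in the precipitate, tdrkh and tdrd12 were 3.05-fold and 2.54-fold higher, and tdrd6, rnf17, tdrd5, tdrd9 and tdrd1 were not called. Of the 6 genes matched by symbol 1 was called higher and 0 lower, and of all 8 genes 3 were called higher and 0 lower, at an adjusted p under 0.05 in limma. At an unadjusted p under 0.05 the 8 genes again gave 3 higher and 0 lower, and edgeR, DESeq2 and voom on recovered reads gave the same counts. Over all genes tested, limma called 4.46% higher and 1.86% lower at the adjusted p, 12.2% and 9.00% at the unadjusted p, and 6.97% and 3.52% at the adjusted p with replicate number as a block. At an adjusted p under 0.05 edgeR called 4.36% higher and 1.85% lower, voom 4.63% and 2.43%, and DESeq2 8.87% and 4.78% of the 11957 genes to which it gave an adjusted p. With library size as the only scaling the calls over all genes split into 474 higher and 383 lower, against 591 and 247. The median log2 fold change was 0.58 over the 8 genes and 0.49 without tdrd7, against -0.01 over all genes tested. The IP and input libraries did not overlap for tdrd7, tdrkh and tdrd12, where every IP library was higher. Over all genes tested, 14.6% showed that order and 12.9% the opposite.

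**Figure D1:**
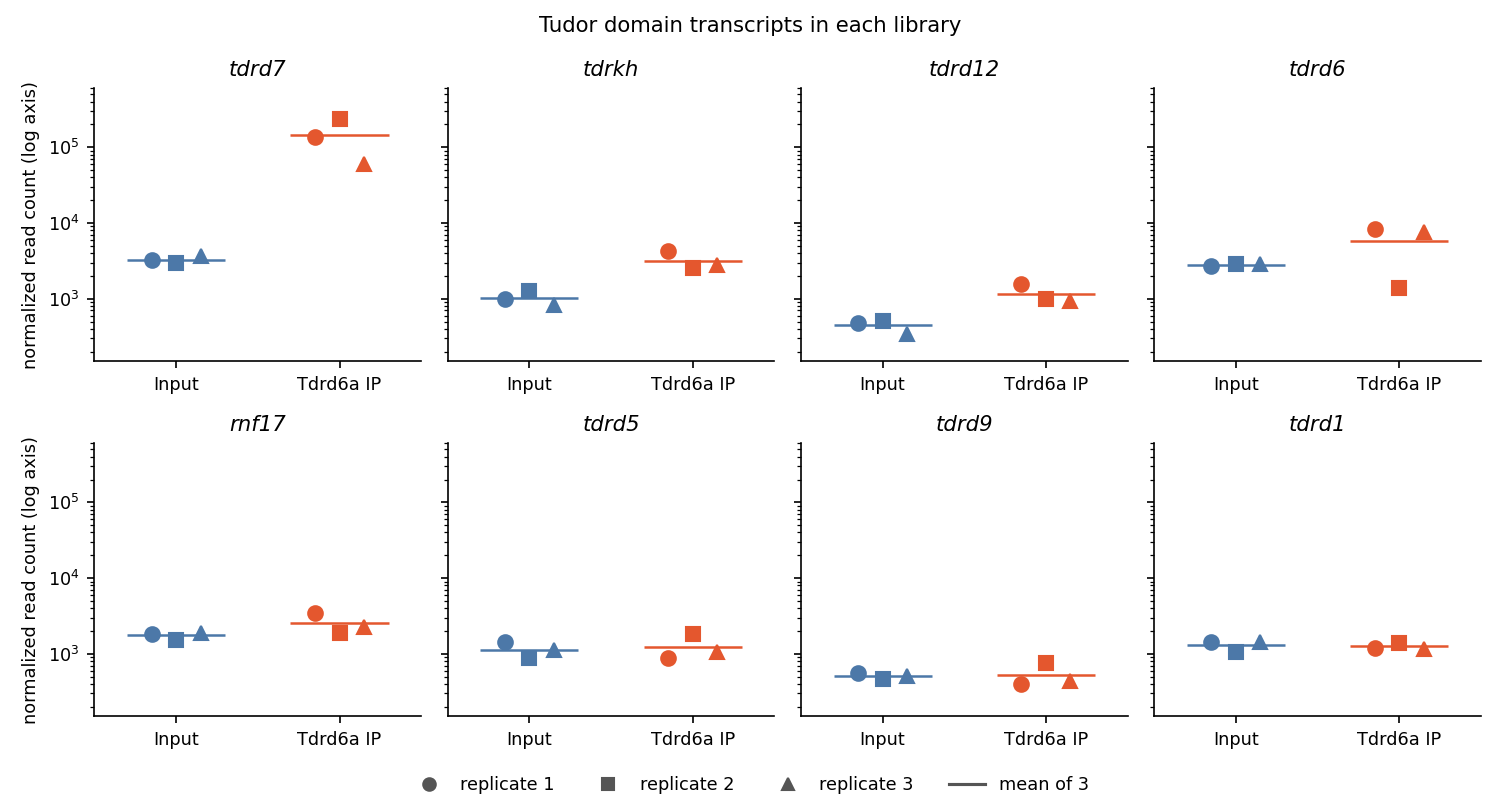
Normalized read counts of the 8 Tudor domain transcripts (log axis) in each Input (blue) and Tdrd6a IP (red) library, with symbols for replicate numbers and lines for the mean of 3. The IP libraries of tdrd7, at 60708 to 233219.5, stand far above its input libraries, and those of tdrd6 lie on both sides of its input libraries.

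The gene tdrd7 encodes a protein with Tudor and LOTUS domains that in zebrafish shapes germ granules. Its transcript had 3257, 2932 and 3650 normalized counts in input replicates 1, 2 and 3, and 138306, 233219.5 and 60708 in IP replicates 1, 2 and 3. Input libraries were close together, IP libraries were all far above them, and IP replicate 2 was the highest and IP replicate 3 the lowest. The log2 fold change was 5.26 ± 0.44 (SE, n = 3 libraries per group, limma adjusted p = 0.000199), with a 95% confidence interval of 4.28 to 6.23. It ranked 11 among the 13265 genes tested. As a share of all reads the transcript took 0.0277, 0.0249 and 0.0270% in input and 0.886, 1.54 and 0.519% in IP, so that in IP replicate 2 it alone supplied 62030 reads of the library.

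The IP libraries differed in the size of this enrichment. Against the input mean, tdrd7 was higher by 42.2-fold in IP replicate 1, by 71.1-fold in IP replicate 2 and by 18.5-fold in IP replicate 3. Its spread between IP libraries, an SD of 0.98 on the log2 scale, was larger than the spread between input libraries, 0.16, and larger than the median over all genes tested, 0.48. The 3 genes whose values over the 6 libraries were most like those of tdrd7 were hook2, CEP152 and vasa. Their root mean square differences from tdrd7 on the log2 scale, after centring on the input mean, were 0.11, 0.25 and 0.34. They were picked from 9121 named genes with a mean of at least 50. The transcript of hook2, a dynein adaptor gene, had 263, 240 and 336 normalized counts in the input libraries and 10728, 22175 and 4851 in the IP libraries. Its order of IP libraries was that of tdrd7, which the choice by likeness over these libraries favours. A further row without a symbol (ENSDARG00000077523), which the identifier table lists as a second TDRD7 gene, was named after its values were seen. It had 223, 551 and 494 normalized counts in the input libraries and 294, 346 and 211 in the IP libraries (-0.49 ± 0.39, limma adjusted p = 0.525), so the groups overlapped. Whether reads were shared between the TDRD7 rows was not tested.

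**Figure D2:**
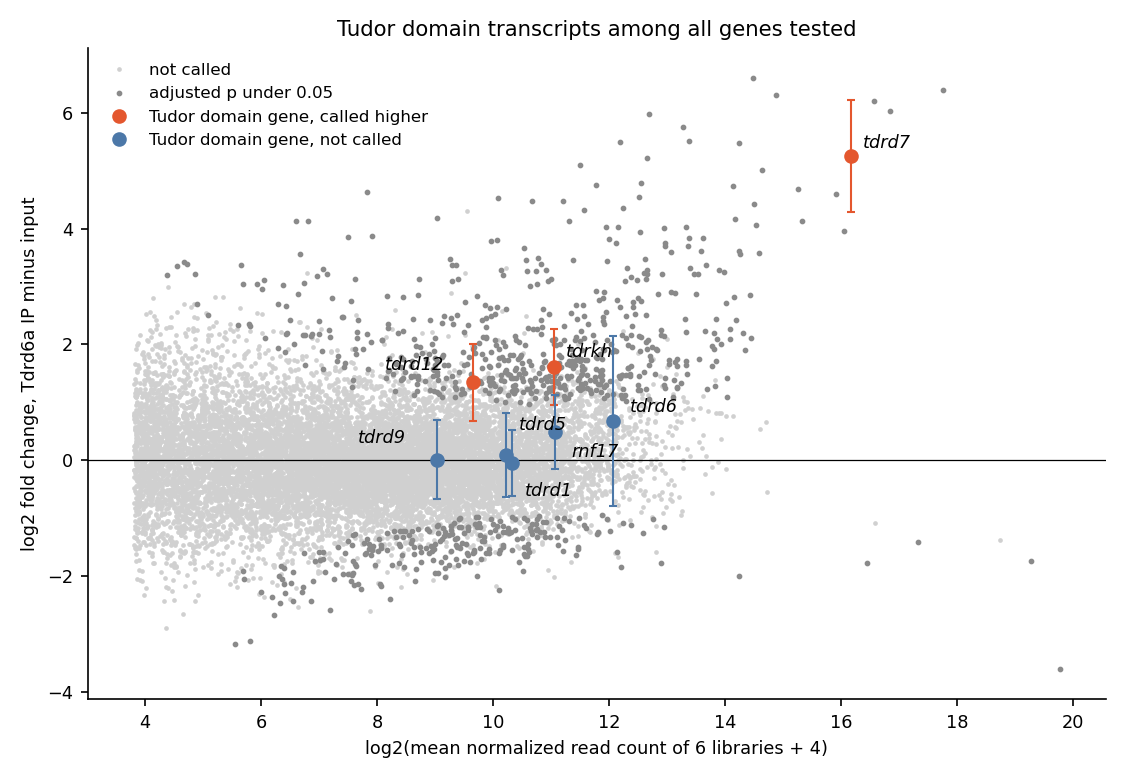
Log2 fold change of IP over input (vertical axis) against log2 of the mean normalized read count plus 4 over the 6 libraries (horizontal axis) for the 13265 genes tested, dark grey where called. Coloured points are the 8 Tudor domain genes with 95% confidence intervals; tdrd7 stands at 5.26, and the intervals of tdrd6, rnf17, tdrd5, tdrd9 and tdrd1 cross 0.

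The next 2 transcripts, tdrkh and tdrd12, were enriched to a lower degree, both most in IP replicate 1. The gene tdrkh encodes a protein with KH and Tudor domains that in mouse sits on the outer membrane of mitochondria and takes part in trimming piRNAs. Its transcript had 1002, 1284 and 815 normalized counts in input replicates 1, 2 and 3 and 4258, 2564 and 2754 in IP replicates 1, 2 and 3. Every IP library was above every input library, with IP replicate 1 the highest. The log2 fold change was 1.61 ± 0.29 (SE, n = 3, limma adjusted p = 0.0109), with a 95% confidence interval of 0.96 to 2.26. The call was lost without input replicate 1 (adjusted p = 0.0715) or input replicate 3 (adjusted p = 0.0807).

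The gene tdrd12 encodes a Tudor domain protein with a helicase-like region, which in mouse is needed for the making of secondary piRNAs. Its transcript had 474, 515 and 346 normalized counts in the input libraries and 1544, 989 and 924 in the IP libraries. The groups did not overlap. Within the IP group replicate 1 was the highest as for tdrkh, but replicates 2 and 3 stood in the opposite order. The log2 fold change was 1.34 ± 0.30 (SE, n = 3, limma adjusted p = 0.0249), with a 95% confidence interval of 0.68 to 2.01. It lay near the threshold. The adjusted p was 0.056 without the filter on low values, 0.0961, 0.0757 and 0.132 without input replicates 1, 2 and 3, and 0.103 without IP replicate 1. It was called without IP replicate 2 (adjusted p = 0.00763) or IP replicate 3 (adjusted p = 0.0281).

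Among the 28 pairs that the 8 genes form, tdrkh and tdrd12 differed by a root mean square of 0.21 over the 6 libraries. The pair tdrd5 and tdrd9 differed by 0.14, tdrd1 and tdrd9 by 0.23, and tdrd1 and tdrd5 by 0.29. The pairs with tdrd7 differed by 2.67 to 3.79. Among named genes, those most like tdrkh were dock1, myh9b and cyfip1, at 0.068, 0.086 and 0.12, and those most like tdrd12 were cpdp, rgl3a and wrap73, at 0.095, 0.11 and 0.11. All 6 of these were called higher, with log2 fold changes of 1.37 to 1.67. They were picked for likeness over these same 6 libraries, so similar fold changes follow largely from the choice.

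The transcript of the precipitated protein, tdrd6, had nearly equal input levels and IP levels on both sides of them. It had 2679, 2854 and 2849 normalized counts in input replicates 1, 2 and 3 and 8445, 1384 and 7708 in IP replicates 1, 2 and 3. IP replicates 1 and 3 were above every input library, at 3.02-fold and 2.76-fold of the input mean, and IP replicate 2 was below every input library, at 0.495-fold. In IP replicate 2 the value rested on 368 reads, whose exact Poisson 95% interval, 331 to 408 reads, corresponds to 1246 to 1532 normalized counts. That interval covers counting error alone and lies wholly below the input libraries. The log2 fold change was 0.68 ± 0.64 (SE, n = 3, limma adjusted p = 0.607), with a 95% confidence interval of -0.79 to 2.15. Without IP replicate 2 it was 1.53 (adjusted p = 0.000941), and without IP replicates 1 and 3 in turn it was 0.23 and 0.29.

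The spread of tdrd6 between IP libraries was wide for the table as a whole. Its SD on the log2 scale was 1.47 in IP, larger than that of 95.3% of the genes tested, and 0.052 in input. IP replicate 2 lay 2.54 log2 units below the mean of the other two IP libraries, and in 97.2% of genes it lay higher; the median over all genes tested was 0.01. Other named genes, picked for likeness over these same 6 libraries, had similar profiles, which follow largely from the choice. Those most like tdrd6 were sfi1, brwd1 and myo10l3, with root mean square differences of 0.11, 0.14 and 0.15, and sfi1 had 631, 628 and 602 normalized counts in the input libraries and 2005, 346 and 1531 in the IP libraries.

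Its relatives tdrd6b and tdrd15, which also encode proteins with several Tudor domains, were close to that profile. The tdrd6b row (ENSDARG00000089954, listed without a symbol) had 2879, 3015 and 3132 normalized counts in the input libraries and 8254, 1485 and 5977 in the IP libraries, and tdrd15 had 637, 558 and 690 in input and 1451, 214 and 1444 in IP. For both, IP replicates 1 and 3 were above all input libraries and IP replicate 2 was below them. Neither was called (tdrd6b 0.48 ± 0.56, limma adjusted p = 0.693; tdrd15 0.29 ± 0.69, limma adjusted p = 0.863). Among the 10339 other genes with a mean of at least 50, tdrd6b stood at place 11 and tdrd15 at place 34 in likeness to tdrd6, with differences of 0.20 and 0.30. The ratio of tdrd6b to tdrd6, with 4 added to both normalized counts, was 1.07, 1.06 and 1.10 in input and 0.977, 1.07 and 0.776 in IP. Whether reads of tdrd6 and tdrd6b, as related sequences, were shared in counting was not tested. These ratios were computed after the values were seen, and no p is given for them.

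**Figure D3:**
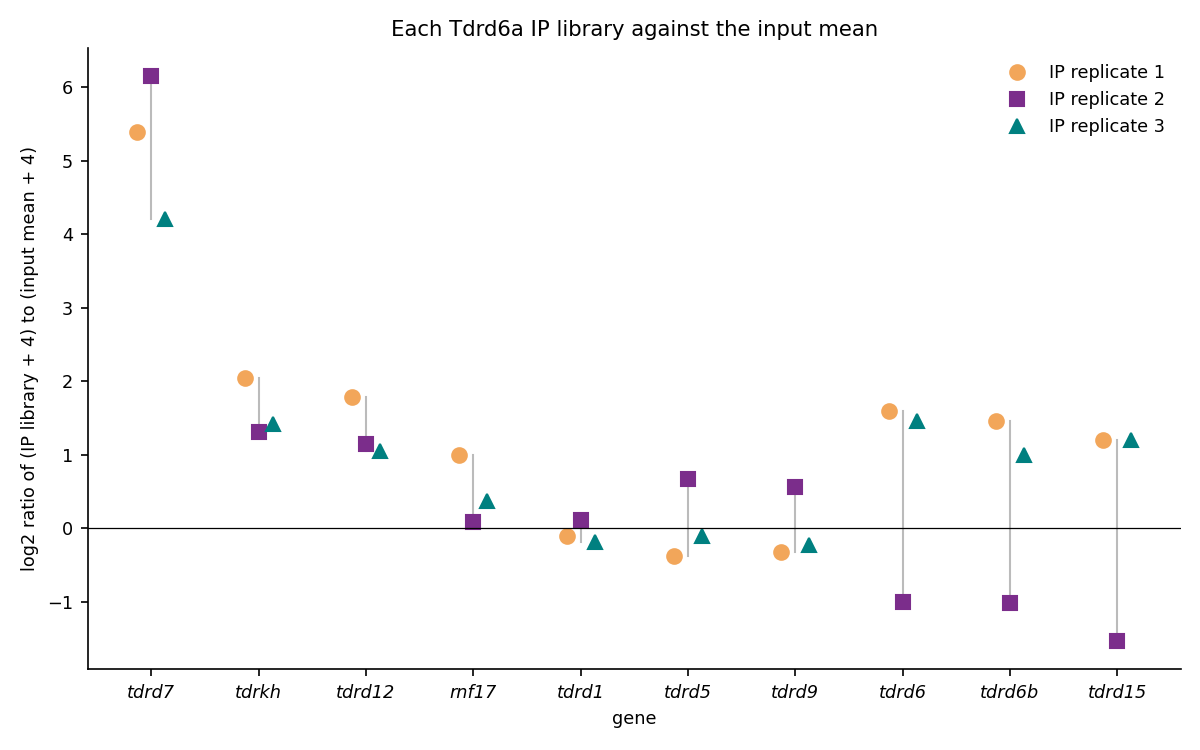
Log2 ratio of each IP library to the mean of the 3 input libraries (4 added to both) for the 8 Tudor domain genes and for tdrd6b and tdrd15, with colours and symbols for IP replicates. IP replicate 2 is the highest of the 3 points for tdrd7, tdrd5, tdrd9 and tdrd1 and the lowest for tdrd6 (at -1.01), tdrd6b, tdrd15, tdrkh and rnf17.

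Ratios of transcripts were taken within each library, with 4 added to both normalized counts and no correction for transcript length. The ratio of tdrd7 to tdrd6 was 1.22, 1.03 and 1.28 in input replicates 1, 2 and 3 and 16.4, 168 and 7.87 in IP replicates 1, 2 and 3. All IP ratios were above all input ratios. On the log2 scale the difference was 4.58 (two-sided exact permutation p = 0.1, the lowest value this design can reach, and 0.3 when adjusted over 3 such tests), and it was 4.58 and 4.57 with 1 and 16 added in place of 4. The ratio of tdrkh to tdrd6 was 0.375, 0.451 and 0.287 in input and 0.504, 1.85 and 0.358 in IP. These ranges overlapped, and the log2 difference of 0.93 was not called (two-sided exact permutation p = 0.3, adjusted p = 0.3). Between libraries of the same number the ratio was higher in IP in 3 of 3 pairs (two-sided exact sign-flip p = 0.25, the smallest possible with 3 pairs).

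The remaining genes, rnf17, tdrd1, tdrd5 and tdrd9, were not called, and for each the IP and input ranges overlapped. The gene rnf17 encodes a protein with a RING finger and Tudor domains, known in mouse as a brake on piRNA amplification. Its transcript had 1848, 1517 and 1911 normalized counts in the input libraries and 3497, 1857 and 2266 in the IP libraries. IP replicates 1 and 3 were above all input libraries and IP replicate 2 was among them. The log2 fold change was 0.49 ± 0.29 (SE, n = 3, limma adjusted p = 0.384), with a 95% confidence interval of -0.16 to 1.13, which spans 0.896-fold to 2.19-fold. The named genes most like it were wdr27, phf20b and inadl, of which phf20b is itself a Tudor domain gene.

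The gene tdrd1 encodes a scaffold that in zebrafish binds the Piwi protein Zili. Its transcript had 1420, 1056 and 1454 normalized counts in the input libraries and 1213, 1410 and 1145 in the IP libraries, so the groups overlapped. The log2 fold change was -0.05 ± 0.26 (SE, n = 3, limma adjusted p = 0.941), and the 95% confidence interval, -0.62 to 0.52, spans 0.651-fold to 1.43-fold. Its SD in IP, 0.15 on the log2 scale, was larger than that of only 7.89% of the genes tested. The sign of this estimate changed when input replicate 1, input replicate 3 or IP replicate 3 was left out.

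The gene tdrd5 encodes a protein with LOTUS and Tudor domains, needed in mouse for sperm formation and transposon silencing. Its transcript had 1425, 869 and 1120 normalized counts in the input libraries and 874, 1816 and 1053 in the IP libraries (log2 fold change 0.09 ± 0.33, limma adjusted p = 0.916, 95% confidence interval -0.63 to 0.81). The gene tdrd9 encodes an RNA helicase with a Tudor domain, part of piRNA-guided transposon silencing in mouse. Its transcript had 565, 460 and 504 normalized counts in the input libraries and 406, 756 and 436 in the IP libraries (0.01 ± 0.31, limma adjusted p = 0.992, 95% confidence interval -0.68 to 0.70). In both genes IP replicate 2 was the highest of all 6 libraries and IP replicate 1 was close to or below the lowest input library. IP replicate 2 lay 0.92 log2 units above the mean of the other two IP libraries for tdrd5 and 0.84 for tdrd9. The estimates of both turned negative with library size as the only scaling (-0.10 and -0.18, where the median over all genes moved from -0.01 to -0.18), so no direction is given for them. The depth of IP replicate 2 was 483 reads for tdrd5 and 201 for tdrd9.

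Without tdrd7, the other 7 genes together took 801, 725 and 666 CPM (recovered reads scaled to a common library total) in input replicates 1, 2 and 3 and 1296, 711 and 1391 in IP replicates 1, 2 and 3. The groups overlapped through IP replicate 2, and the difference of 402 CPM was not called (two-sided exact permutation p = 0.3, adjusted p = 0.3). This overlap depended on the scaling: with TMM effective library sizes the values were 724, 665 and 696 in input and 1533, 791 and 1221 in IP, every IP library was above every input library, and the difference was 487 (two-sided exact permutation p = 0.1, the smallest possible). The sums of the normalized counts used for the gene values, 8554 to 9413 in input and 10775.5 to 20236 in IP, did not overlap either. No test was run on those sums. With tdrd6 left out as well, the 6 genes took 573, 483 and 455 in input and 755, 620 and 733 in IP, where all IP libraries were above all input libraries (two-sided exact permutation p = 0.1, the smallest possible). These 6 include tdrkh and tdrd12, which were called higher. For tdrkh alone the share of reads was 0.0085, 0.0109 and 0.0060% in input and 0.0273, 0.0169 and 0.0235% in IP. The groups overlapped for each of rnf17, tdrd1, tdrd5 and tdrd9, and their sum was not taken, so no shift of these genes is shown.

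Other Tudor domain genes, most of them readers of methylated histones or factors of splicing and RNA turnover, were mostly not called. Of the 24 that were found, 21 were tested, and of these 0 were higher, 1 lower and 20 not called in limma. The limma shares over all genes tested were 4.46% higher and 1.86% lower. At an unadjusted p under 0.05 limma gave 0 higher and 2 lower, and edgeR, DESeq2 and voom called 0 higher and 1, 2 and 1 lower. Of all genes given an adjusted p, edgeR, DESeq2 and voom called 4.36%, 8.87% and 4.63% higher and 1.85%, 4.78% and 2.43% lower. The unadjusted count of 2 lower among 21 is a share near the 9.00% of all genes, and the count of 0 higher stands against 12.2%. With replicate number as a block 0 were higher and 2 lower, against 6.97% and 3.52% of all genes tested. Their median log2 fold change was -0.07. The gene called lower was tp53bp1, which encodes a DNA damage protein that binds methylated histones. It had 1874, 2920 and 1895 normalized counts in the input libraries and 1064, 910 and 916 in the IP libraries (-1.18 ± 0.27, limma adjusted p = 0.0279), and the call was lost when any input library or IP replicate 1 or 3 was left out (adjusted p = 0.0538 to 0.139) and without the filter on low values (adjusted p = 0.058). The others with the highest mean normalized counts, which also depend on transcript length, were setdb1a, akap1b, setdb1b, tdrd6b and kdm4ab, with estimates of -0.44, 0.10, 0.62, 0.48 and 0.06. The transcript of akap1b, whose protein ties RNA to mitochondria, had 4553, 5273 and 5870 normalized counts in the input libraries and 4461, 6102 and 6435 in the IP libraries, so the groups overlapped.

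Among 11 Piwi and piRNA factors tested, 1 was higher, 1 lower and 9 not called. At an unadjusted p under 0.05 limma gave 2 higher and 2 lower. Over all genes tested limma gave 4.46% higher and 1.86% lower at the adjusted p, and 12.2% and 9.00% at the unadjusted p. Each of edgeR and voom called 1 higher and 1 lower, and DESeq2, like limma with replicate number as a block, 2 higher and 1 lower. Of all genes given an adjusted p, edgeR, DESeq2 and voom called 4.36%, 8.87% and 4.63% higher and 1.85%, 4.78% and 2.43% lower. For limma with the block these shares were 6.97% and 3.52%. The log2 fold changes of the 11 factors had a median of -0.25. The germ cell helicase gene vasa was higher, with 837, 609 and 565 normalized counts in the input libraries and 35980, 67823 and 10660.5 in the IP libraries (5.48 ± 0.59, limma adjusted p = 0.00207). Its IP libraries had the same order as those of tdrd7. This gene was among those picked above for likeness to tdrd7, a choice that favours a shared order. The germ plasm markers nanos3, dazl, dnd and ca15b had that order too. The transcript of gtsf1, a cofactor of Piwi proteins, was lower, with 2373, 2260 and 2326 normalized counts in the input libraries and 682, 940 and 776 in the IP libraries (-1.54 ± 0.25, limma adjusted p = 0.00602). The others with the highest mean normalized counts were hsp90ab1, piwil2, asz1, fkbp6 and piwil1, at -0.67, 0.25, -0.14, -0.25 and -0.28, and none of these was called. The gene of the enzyme that methylates piRNA ends, henmt1, had 30.3, 31.6 and 36.8 normalized counts in the input libraries and 88.3, 113 and 121 in the IP libraries without passing the test (1.58 ± 0.44, limma adjusted p = 0.058). It was called with DESeq2 (adjusted p = 0.0133) and with the replicate block in limma (adjusted p = 0.0424), and was named after its values were seen.

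Genes of the machinery that methylates arginine, the residue many germline Tudor domains bind, gave 1 higher, 0 lower and 5 not called of 6 tested. Their median log2 fold change was 0.07. Over all genes tested limma called 4.46% higher and 1.86% lower. At an unadjusted p under 0.05 limma gave 1 higher and 1 lower (riok1) of the 6, against 12.2% and 9.00% of all genes. With edgeR, DESeq2 and voom 1 was called higher and 0 lower. Of all genes given an adjusted p, these fits called 4.36%, 8.87% and 4.63% higher and 1.85%, 4.78% and 2.43% lower. The higher one was prmt1, the gene of the main enzyme for asymmetric arginine methylation, with 4660, 3467 and 3276 normalized counts in the input libraries and 18682, 9373 and 11056 in the IP libraries (1.73 ± 0.32, limma adjusted p = 0.0114). Every IP library was above every input library. The call was lost when any input library was left out (adjusted p = 0.0573 to 0.087). The transcript of prmt5, whose enzyme makes the symmetric mark on Piwi proteins, had 2624, 3233 and 2539 normalized counts in the input libraries and 3182, 2993 and 2645 in the IP libraries (0.08 ± 0.25, limma adjusted p = 0.905), so its groups overlapped. The remaining tested genes were carm1, riok1, prmt7 and prmt6, with estimates of 0.49, -0.88, 0.07 and -0.13, and none was called. The gene carm1 encodes another arginine methyltransferase; its transcript had 2470, 2718 and 3050 normalized counts in the input libraries and 4344, 4030.5 and 3221 in the IP libraries, all above input (limma adjusted p = 0.312). The transcript of riok1, whose protein is a partner of Prmt5 in human cells, had 974, 674 and 615 in input and 520, 293 and 419 in IP, all below input (limma adjusted p = 0.131). Of the 6 genes 2 had every IP library above every input library and 1 every IP library below, against 14.6% and 12.9% of all genes tested.

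**Figure D4:**
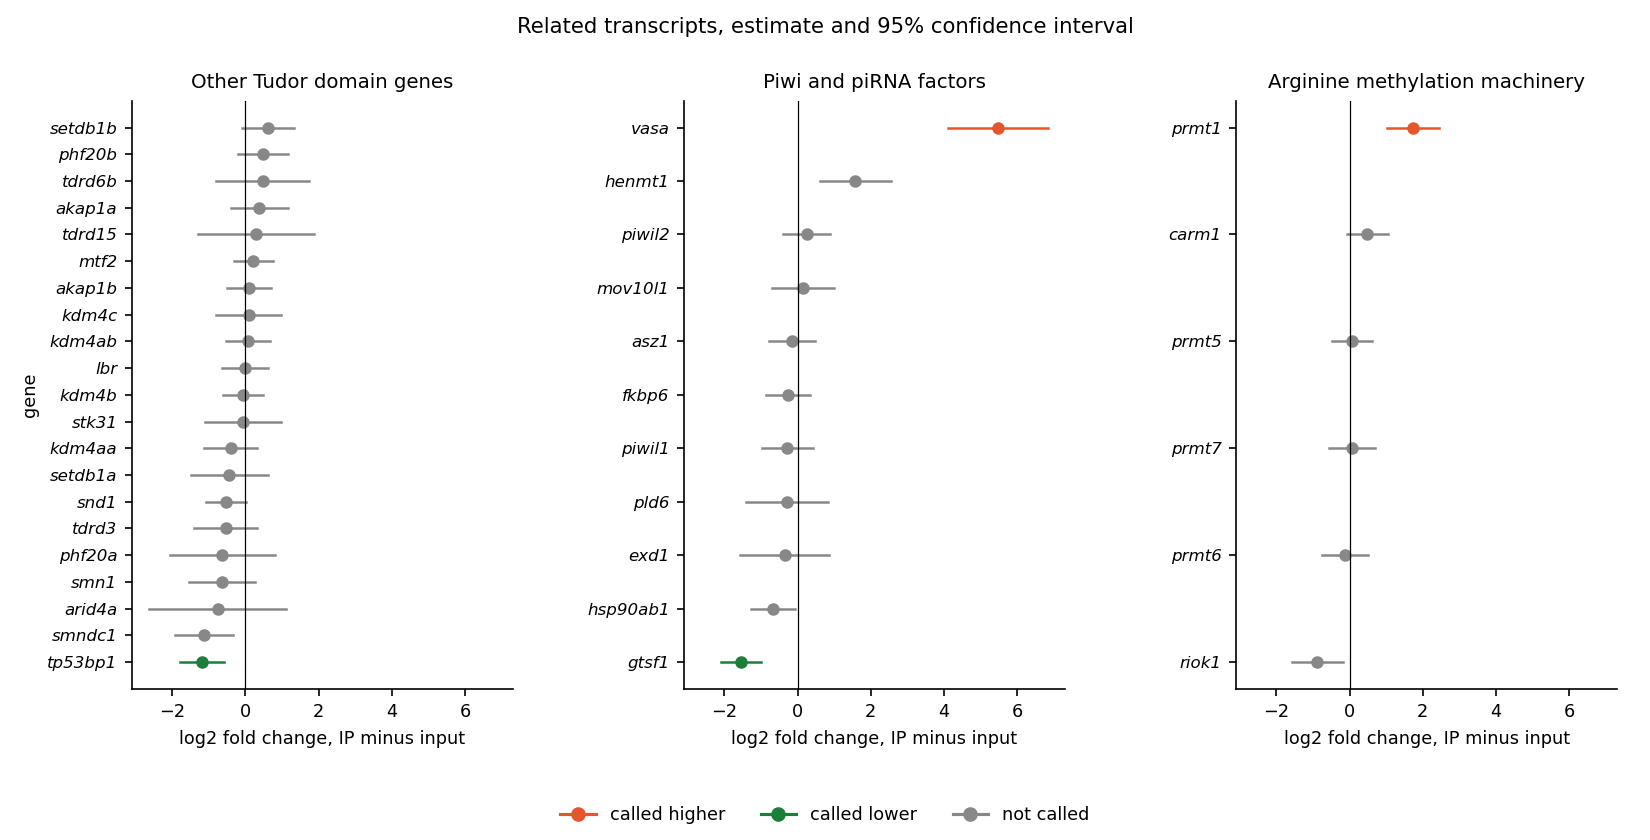
Log2 fold change of IP over input with 95% confidence intervals for the tested members of 3 related gene lists, coloured where called. The transcript of vasa, at 5.48, and that of prmt1, at 1.73, are the called higher members, and tp53bp1 and gtsf1 the called lower ones.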

How the data were processed

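RNA from input (zygotes per the sample labels, ovary per the series text) or Tdrd6a immunoprecipitates was extracted with Trizol, made into libraries with the NuGEN Ovation V2 kit and sequenced as single-end reads, per the labels' protocols. TopHat, DESeq and the Zv9 assembly are named in the submitters' processing notes. How reads were counted, on which annotation and whether by strand is not given in the sources used here, so overlapping genes may share reads. The authors deposited a signal, namely read counts scaled per library. Whole reads were recovered by dividing each library by its value of 1 read, 0.682 to 3.76 normalized counts; 100% of the values above 0 lay within 0.06 of a whole multiple.

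limma 3.58.1 (abundance trend, robust, two-sided; R 4.3.3) was fitted over 13265 genes with a mean of at least 10, on log2(normalized count + 4), a scale that understates the change of low genes, with Benjamini-Hochberg adjustment over them. edgeR 4.0.16 called 824 genes on the recovered reads, and DESeq2 1.42.0 and voom were alternatives, beside other scalings, filters, pseudocounts, the replicate block and each library left out. Same-numbered libraries deviated together from their group means (correlations of 0.294, 0.305 and 0.301 across genes, against -0.210 to -0.0704 otherwise), so the numbers may pair libraries; the labels do not say so. No 2 libraries of a group agreed within sampling noise. The fit was checked on simulated reads, with the same spread set for both groups and changes larger than those of tdrkh and tdrd12. That check therefore does not bear on calls of their size. Likeness was the root mean square difference of log2 values over 6 libraries; the 3 nearest named genes are given. Members, lists and tests were chosen with earlier results of these data known. The rule named all 8 genes and, from the 3 related lists, the called members and at most 5 others in order of mean normalized count. Transcript lengths were not used: the order by mean normalized count served only to choose the genes named, and ratios between genes are compared only between libraries. Tables and figures were made in Python 3.11.15 (numpy 2.4.6, pandas 2.3.3, matplotlib 3.10.9, scipy 1.17.1).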

Additional observations from a re-analysis of the deposited data

How the results depend on the processing

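The call of tdrd7 held under all 17 alternatives, with estimates of 4.81 to 5.78, and that of tdrkh under 15, with 1.38 to 1.78. In the 6 fits that each leave out 1 library, the genes matched by symbol gave 1 to 2 calls higher (2 without IP replicate 2, where tdrd6 passed). Those matched by symbol or identifier gave 1 to 4 calls higher, and all genes 170 to 1185. Both lists of Tudor domain genes gave 0 lower calls throughout, against 10 to 547 over all genes. Calls in both directions together were 193 to 1732 over all genes. The genes called numbered 500 without the filter on low values, 1632 with DESeq2 and 1392 with the replicate block in limma, against 838. The replicate block changed no call among the 8 genes. As differences within pairs, the replicate block left the log2 ratios at 4.58 and 0.93 and the share at 402 (two-sided exact sign-flip p = 0.25 for both ratios, the smallest possible, and 0.5 for the share). Leaving out 1 library gave 3.28 to 5.49 and 0.22 to 1.41 for the ratios and 273 to 613 CPM for the share, which was 9946 with tdrd7 included. The sign turned for 3 genes near 0, none called in any fit: tdrd5 (-0.10 with library size only, -0.0053 with voom), tdrd9 (-0.18 with library size only, -0.039 with TMM, -0.12 with voom, -0.033 with edgeR and the block), and, with 1 library left out, tdrd1 between -0.20 and 0.031, tdrd5 between -0.22 and 0.31 and tdrd9 between -0.27 and 0.17; the cause was not tested. With TMM effective library sizes the share was 487 CPM (two-sided exact permutation p = 0.1). Each group held 3 libraries; in IP replicate 2, the shallowest, the uncalled genes had 201 to 494 reads and tdrd12, which was called, 263. The part of depth in the missing calls was not tested.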

Other observations

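Further Tudor domain genes were uncalled but had values that differed by library. The transcript of arid4a, a chromatin gene, had 2023, 3122 and 2378 normalized counts in the input libraries and 3006, 331 and 3069 in the IP libraries. That of phf20a had 407, 726 and 762 in input and 687, 128 and 681 in IP, and that of stk31, a germline kinase gene with a Tudor domain, had 349, 315 and 422 in input and 470, 147 and 572 in IP. For all 3 genes IP replicate 2 was the lowest of the 6 libraries. The same held for tdrd3, tdrd6b, tdrd15, lbr, setdb1a, kdm4aa, kdm4ab, kdm4c and tp53bp1 of the same list. Of these, tp53bp1 was called lower, and its IP replicates 2 and 3 were close, at 910 and 916. IP replicate 2 was not the lowest for the other tested genes of the list, and the share over all genes was not computed. The transcript of snd1, a nuclease gene with a Tudor domain, had 956, 781 and 914 in input and 615, 602 and 595 in IP, and that of smndc1, a splicing factor gene, had 388, 692 and 432 in input and 204, 327 and 161 in IP. For both, all IP libraries were below all input libraries, and neither passed the test (limma adjusted p = 0.243 and 0.0957), though smndc1 was called lower with DESeq2 (adjusted p = 0.0331) and with the replicate block in limma (adjusted p = 0.0324). Of the 21 genes of the list that were tested, 3 had every IP library below every input library and 0 the opposite. Over all genes tested the shares were 12.9% and 14.6%. The genes whose counts are given here were chosen after their values were seen.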
